A study of Mus musculus with 20 samples.

Results

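Hyaluronan genes were followed across normal mouse skin and p53-deficient skin tumors: the synthases Has1, Has2 and Has3, the hyaluronidases Hyal1 and Hyal2, the receptors Cd44 and Lyve1, the hyaluronan-binding protein Tnfaip6 (TSG-6), and versican (Vcan), the large proteoglycan that binds hyaluronan in the matrix. Members were chosen by name, and a probeset counted for a member when its annotation gave that gene alone. By this rule 8 of the 9 listed genes had 20 probesets among the 18193 genes measured. Hyal1 has no value here, because its 2 probesets are also annotated to the overlapping gene Naa80. Each gene is given by its brightest probeset over the 20 arrays, with the others as a check.

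Hyaluronan is a long, unbranched sugar polymer made at the plasma membrane by the HAS enzymes from UDP-glucuronic acid and UDP-N-acetylglucosamine and extruded as it grows. In skin it fills the dermis and the spaces between keratinocytes, and it is held there by receptors such as CD44 and by proteins that cross-link it, among them TSG-6 and versican. HYAL2 cuts long chains at the cell surface, and LYVE1, a relative of CD44, marks lymphatic endothelium and a class of tissue macrophages.

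The arrays, of type Affymetrix MOE430 2.0, held total RNA of 5 normal skin samples from wild type mice of 2 months and of 15 skin tumors, all of the FVB strain. In 7 tumors the genotype was k14Cre;p53loxP/loxP (Trp53ΔEC), and in 8 it was k14Cre;p53loxP/loxP;pRbloxP/loxP (RbΔEC; Trp53ΔEC, called double-deficient below). The keratin 14 promoter drives Cre in stratified epithelia, so that the stroma of these tumors is not recombined by design. By histology 6 tumors were poorly differentiated, 4 were mixed, 3 were undifferentiated and 2 were spindle cell carcinomas, and the last 2 classes form the undifferentiated/spindle group (5 tumors). Tumor ages are not in the labels, nor is the mouse behind each tumor, and a p-value here therefore reflects how much the samples vary, not animals known to be independent.

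All values are log2 RMA values, and differences are in log2 units. The array medians lay between 5.585 and 5.753. Rb1 ranged from 8.95 to 9.26 in skin, from 7.85 to 8.84 in Trp53ΔEC tumors and from 6.55 to 8.14 in double-deficient tumors, although its probeset may lie outside the deleted exons, and Trp53 was not analysed here. The mean of 14 keratinocyte markers lay between 11.75 and 12.05 in skin, 11.14 and 12.21 in poorly differentiated, 6.33 and 10.13 in mixed, and 5.45 and 8.34 in undifferentiated/spindle tumors. Normal skin also held muscle, with 12 skeletal muscle markers at a mean of 13.11 to 13.79 against 5.11 to 8.87 in the tumors. The 3′ minus 5′ difference of Actb, a sign of RNA integrity, was 0.502 to 1.193 in skin, 0.419 to 0.821 in poorly differentiated, 0.383 to 0.66 in mixed and 0.241 to 0.382 in undifferentiated/spindle tumors. It moved with the grade, and its part in the results was not tested.

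Promoter sequences are shown for Vcan, Tnfaip6 and Has1, whose mean level was highest in undifferentiated/spindle tumors, and for Cd44, which rose in the tumors. Has2 and Hyal2 also rose in the tumors, but Has2 had no promoter entry and Hyal2 was not printed. The sequences shown were taken from RefSeq (GRCm38.p6), which held 6 of the 9 members. They run 5′ to 3′ on the gene's strand from 250 bases before its start. Capitals mark matches, on either strand, to 5 motifs: AP-1 (TGANTCA), CRE (TGACGTCA), the GC box (GGGCGG), the TATA box (TATAAA) and the E-box of Snail and Zeb proteins (CAGGTG).

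Vcan, chr13:89742463-89742762, minus strand: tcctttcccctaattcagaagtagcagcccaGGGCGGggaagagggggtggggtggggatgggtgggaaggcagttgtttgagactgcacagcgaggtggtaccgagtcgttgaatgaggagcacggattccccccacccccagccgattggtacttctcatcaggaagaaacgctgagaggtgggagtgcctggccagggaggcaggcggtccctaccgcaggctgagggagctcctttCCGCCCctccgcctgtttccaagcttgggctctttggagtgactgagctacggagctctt
Tnfaip6, chr2:52037863-52038162, plus strand: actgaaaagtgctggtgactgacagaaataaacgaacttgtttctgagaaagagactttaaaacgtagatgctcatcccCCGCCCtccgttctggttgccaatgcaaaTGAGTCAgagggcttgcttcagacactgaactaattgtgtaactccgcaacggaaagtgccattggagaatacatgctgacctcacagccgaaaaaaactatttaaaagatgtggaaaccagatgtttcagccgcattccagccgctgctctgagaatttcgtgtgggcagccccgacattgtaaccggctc
Has1, chr17:17855139-17855438, minus strand: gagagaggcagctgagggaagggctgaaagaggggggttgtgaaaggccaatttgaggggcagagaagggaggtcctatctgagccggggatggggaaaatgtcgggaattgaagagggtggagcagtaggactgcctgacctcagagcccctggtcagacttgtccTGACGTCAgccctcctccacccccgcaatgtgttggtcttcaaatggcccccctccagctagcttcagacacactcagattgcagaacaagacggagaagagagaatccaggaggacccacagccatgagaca
Cd44, chr2:102901616-102901915, minus strand: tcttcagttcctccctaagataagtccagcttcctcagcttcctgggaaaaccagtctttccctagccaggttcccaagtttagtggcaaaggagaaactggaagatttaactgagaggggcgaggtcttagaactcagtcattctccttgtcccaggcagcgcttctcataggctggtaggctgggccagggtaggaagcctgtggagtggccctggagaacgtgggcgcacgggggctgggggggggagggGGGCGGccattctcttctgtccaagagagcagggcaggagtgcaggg

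Tnfaip6 was the one of these 4 promoters with an AP-1 match, which begins at base -142 from the start and was found in 7.81% of all 32851 promoters of the table. The Has1 window held a CRE, beginning at base -83, a motif found in 1.79% of promoters. GC boxes, found in 35.7% of promoters, lay in the windows of Vcan (2 matches), Tnfaip6 and Cd44. None of the 4 windows held the TATA letters (13.6% of promoters) or the E-box letters (20.2%). A match describes the sequence and is not evidence of binding.

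The first comparison asked which members differ between tumors and normal skin. Cd44, Has2 and Hyal2 rose in the tumors and Lyve1 fell, while Vcan, Has1, Has3 and Tnfaip6 did not pass the test (limma, adjusted p under 0.05). These are 3 of 8 members higher, where 18.0% of all genes were higher, and 1 of 8 lower, where 18.3% were lower. The median difference was 0.71 over the 8 members and 0.02 over all genes, and no member separated the 15 tumors from the 5 skin samples completely, where 6.90% of all genes did so upward and 6.38% downward. Bulk values cannot tell fewer cells of a type from less RNA per cell.

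**Figure D1:**
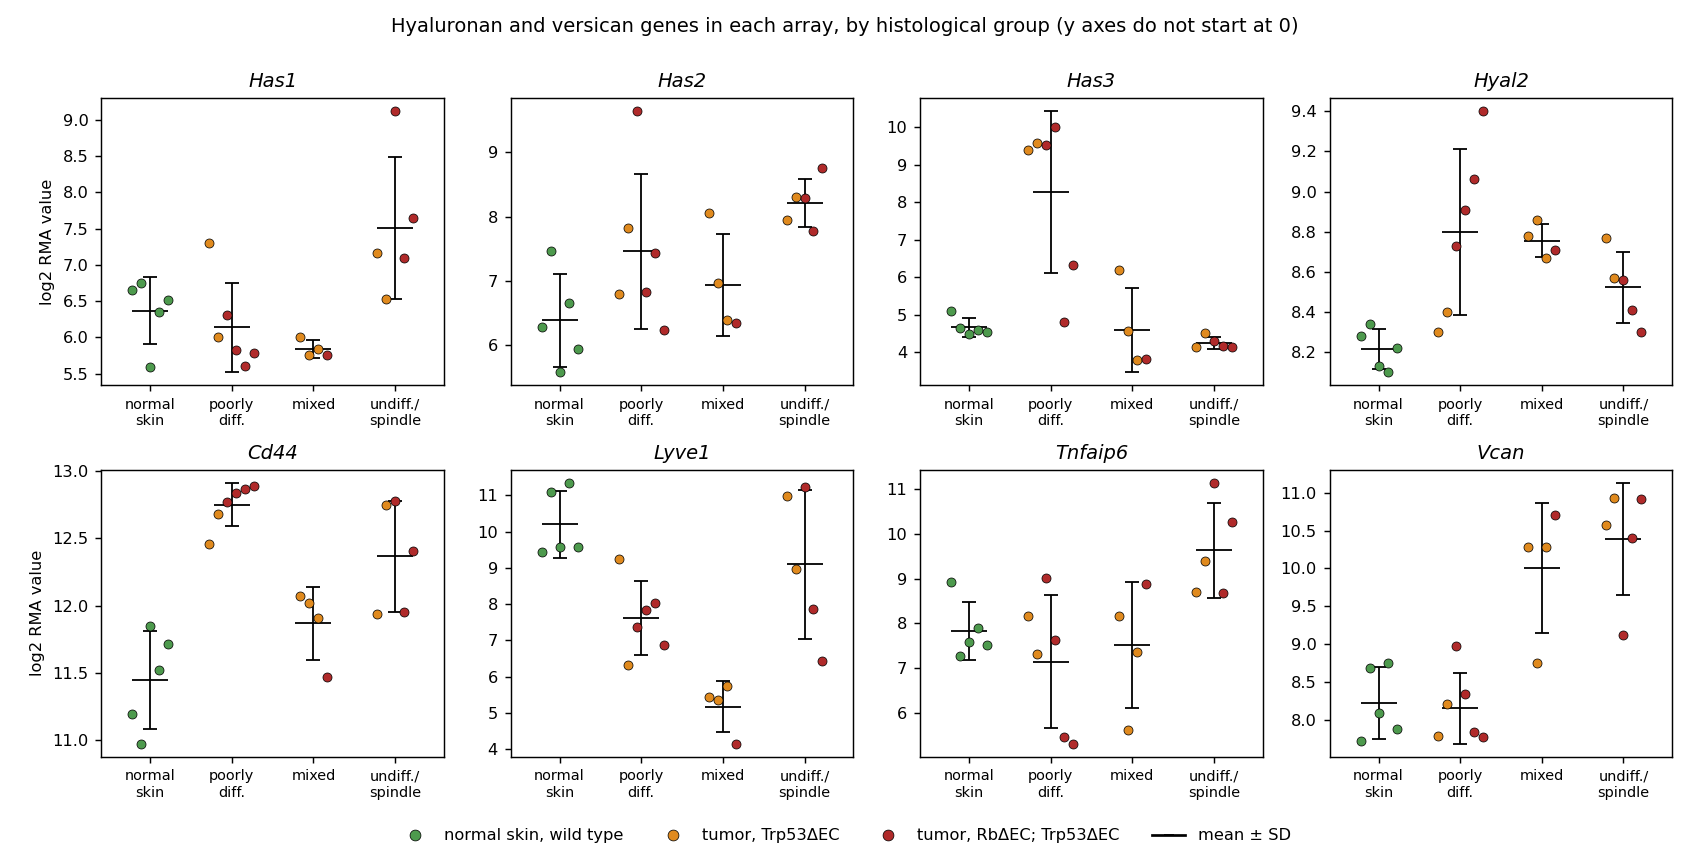
Log2 RMA values of the 8 measured genes in each array (points, colored by genotype), with the mean and SD of each histological group. Has3 stood above 9 in 4 of 6 poorly differentiated tumors and nowhere else, Vcan was above 9 in 3 of 4 mixed and in all 5 undifferentiated/spindle tumors, and Lyve1 was below 6 in each mixed tumor.

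The second comparison asked which members differ by histological grade. From poorly differentiated to undifferentiated/spindle carcinomas Vcan and Tnfaip6 rose and Has3 fell, and the other 5 did not pass the test. That is 2 of 8 members higher, with 12.0% of all genes higher, and 1 of 8 lower, with 9.47% lower. Vcan and Has3 were the 2 members without overlap between the 2 grades, in opposite directions. Over all genes 7.43% were separated upward and 6.89% downward. The median difference was 1.07 over the 8 members and 0.01 over all genes.

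Each histological group was also set against skin and against the others in 1 fit over 4 groups. In poorly differentiated tumors 3 of 8 members were higher than in skin and 1 lower, beside 19.3% and 19.6% of all genes, and Cd44 (higher) and Lyve1 (lower) did not overlap with skin, as for 14.3% and 14.4% of all genes. In mixed tumors 2 were higher and 1 lower, beside 21.8% and 21.3%, and Hyal2 (higher) and Lyve1 (lower) did not overlap, as for 17.4% and 17.8%. In undifferentiated/spindle tumors 4 were higher, beside 21.8%, and none lower, beside 20.2%, and Vcan, Has2 and Cd44 lay wholly above skin, as did 19.8% of all genes (18.2% wholly below). With only these 2 groups in the limma fit, 7 of 8 members were called. Has3 (-0.41, adjusted p = 0.0258), Hyal2 (0.31, adjusted p = 0.0319) and Tnfaip6 (1.79, adjusted p = 0.00987) were added. The Has3 values of both groups lay below the lowest array median, 5.585. The share of all genes called in that fit was not computed, so the count of 7 cannot be set against it. Mixed tumors had 1 member higher and 3 lower than poorly differentiated tumors, beside 12.5% and 11.1% of all genes, with Cd44 and Lyve1 wholly below (6.07% of all genes above, 6.77% below), and 2 lower and none higher than undifferentiated/spindle tumors, beside 9.62% and 8.50%, both of them, Has1 and Lyve1, without overlap (8.18% below, 5.88% above).

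Among the synthases Has3 had the widest range. HAS3 is made by keratinocytes, among other epithelial cells. In the 6 poorly differentiated tumors Has3 ranged from 4.80 to 9.99 with a median of 9.45, and the 5 undifferentiated/spindle tumors were at 4.29, 4.15, 4.18, 4.15 and 4.52. The skin samples were at 5.11, 4.64, 4.48, 4.59 and 4.54. These and the undifferentiated/spindle values all lay below the lowest array median, 5.585, as did the mean of mixed tumors, 4.59. Fold sizes against these groups therefore rest on low signals. Poorly differentiated tumors fell into 4 with values of at least 9.38 and 2 double-deficient tumors, numbers 7 and 8, at 4.80 and 6.32, still above every undifferentiated/spindle tumor. Has3 fell by 4.01 in undifferentiated/spindle tumors (SE 0.87, adjusted p = 0.00792), a 16.1-fold difference, and was 3.59 higher in poorly differentiated tumors than in skin (SE 0.74, adjusted p = 0.000886, limma fit over 4 groups). The grade difference missed the threshold in the methods' t-test (adjusted p = 0.0516) and with the mixed tumors counted as poorly differentiated (-2.54, adjusted p = 0.185).

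Has2, the synthase of fibroblasts and of cells undergoing epithelial-mesenchymal transition, had its highest group mean in undifferentiated/spindle tumors. It was measured at 6.28, 7.47, 5.58, 6.65 and 5.94 in skin and at 8.29, 7.95, 7.78, 8.75 and 8.30 in undifferentiated/spindle tumors, which do not overlap. The difference was 1.83 (SE 0.51, adjusted p = 0.00769). Poorly differentiated tumors ranged from 6.23 to 9.64 around a median of 7.13, and the highest value of any array was in double-deficient tumor 2. Between the grades Has2 differed by 0.75 (SE 0.50, adjusted p = 0.368), and by 1.19 without that tumor (adjusted p = 0.0195). Over all tumors the rise was 1.19 (SE 0.46, adjusted p = 0.0482), just inside the threshold. That call was lost in 12 of the 20 fits that leave out 1 sample (0.99 to 1.25 in these, adjusted p up to 0.144), with each array centred on its median (1.09, adjusted p = 0.0714) and in the tumors of either genotype alone (adjusted p = 0.0564 and 0.0899). The dimmer Has2 probeset gave a larger difference, 1.74 (SE 0.50, adjusted p = 0.00913).

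Has1, usually the least active synthase, was higher in undifferentiated/spindle tumors than in skin and in mixed tumors. Its 5 values there were 9.12, 7.16, 7.10, 7.65 and 6.53, and the highest belonged to the spindle cell carcinoma double-deficient tumor 1. In skin Has1 was at 6.65, 6.75, 5.59, 6.35 and 6.51, and in mixed tumors at 5.76, 6.01, 5.75 and 5.84. The mixed tumors all lay below the undifferentiated/spindle tumors, and skin overlapped them. The difference was 1.14 against skin (SE 0.38, adjusted p = 0.0241) and -1.67 in mixed against undifferentiated/spindle tumors (SE 0.41, adjusted p = 0.00908). Against poorly differentiated tumors the difference was 1.38 (SE 0.44), at the edge of the threshold (adjusted p = 0.0507), and 6 of the alternatives brought it inside (adjusted p from 0.0124 to 0.0439), as did leaving out Trp53ΔEC tumor 2 or 4 (adjusted p = 0.03 and 0.02). The call against skin was lost without double-deficient tumor 1 (0.74, adjusted p = 0.0666) or without skin sample 3 (0.95, adjusted p = 0.0717).

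Hyal2, the measured hyaluronidase, rose modestly in the tumors. Skin lay within 8.10 to 8.34 (median 8.22) and the 15 tumors within 8.30 to 9.40 (median 8.71). Only the lowest tumors, at 8.30, reached into the skin range. The difference was 0.48 (SE 0.14, adjusted p = 0.00923), or 1.4-fold. Mixed tumors, at 8.71, 8.78, 8.86 and 8.67, all lay above skin, by 0.54 (SE 0.17, adjusted p = 0.0169), which missed the threshold after centring the arrays (0.43, adjusted p = 0.0553). Poorly differentiated tumors were 0.59 above skin (SE 0.15, adjusted p = 0.00577), and undifferentiated/spindle tumors 0.31 (SE 0.16, adjusted p = 0.139, or 0.0319 in the fit of those 2 groups alone).

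Cd44, the main hyaluronan receptor of epithelial cells and leukocytes, gave a strong signal, in the 99.2th percentile of all probesets. Its values were 11.19, 10.97, 11.85, 11.52 and 11.71 in skin and ran from 12.46 to 12.89 (median 12.81) in poorly differentiated tumors. Mixed tumors were at 11.47, 12.07, 12.02 and 11.91, and undifferentiated/spindle tumors at 12.78, 11.94, 11.95, 12.41 and 12.75. All poorly differentiated and all undifferentiated/spindle tumors exceeded all skin samples, whereas mixed tumors overlapped skin and lay below each poorly differentiated tumor. Cd44 rose by 0.94 over all tumors (SE 0.22, adjusted p = 0.00219), by 1.30 in poorly differentiated (SE 0.18, adjusted p = 2.45e-05) and by 0.92 in undifferentiated/spindle tumors (SE 0.19, adjusted p = 0.000912). In mixed tumors it was 0.42 above skin (SE 0.20, adjusted p = 0.113) and differed by -0.88 from poorly differentiated tumors (SE 0.20, adjusted p = 0.00383).

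**Figure D2:**
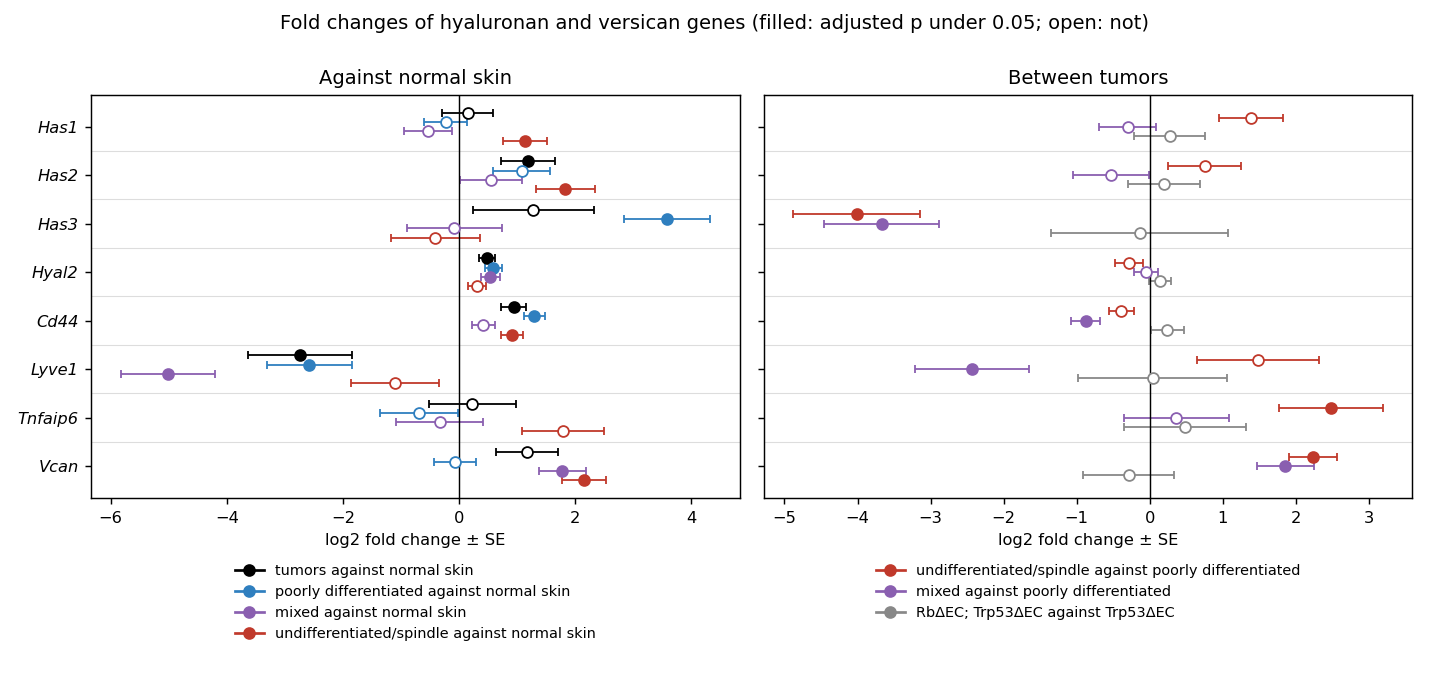
Log2 fold changes with standard errors of the 8 genes against normal skin (left) and between tumors (right), on the x axis. Filled points passed an adjusted p of 0.05, and none of the 8 did between the genotypes.

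Lyve1 fell in the tumors, with its lowest values in the mixed group. It measured 9.43, 11.08, 9.57, 11.34 and 9.57 in skin, 6.33 to 9.24 (median 7.60) in poorly differentiated tumors and 4.15, 5.45, 5.37 and 5.74 in mixed tumors. The undifferentiated/spindle tumors split by histology, with the spindle cell carcinomas at 11.24 and 10.97 and the undifferentiated carcinomas at 7.86, 6.44 and 8.96. Only the spindle cell carcinomas were within the upper part of the skin range, and mixed tumors lay below all other arrays. Lyve1 fell by 2.74 over all tumors (SE 0.90, adjusted p = 0.0226), fell by 2.58 in poorly differentiated (SE 0.73, adjusted p = 0.00955) and fell by 5.02 in mixed tumors (SE 0.81, adjusted p = 8.44e-05). The last is a 32.4-fold difference. Mixed tumors differed by -2.44 from poorly differentiated tumors (SE 0.78, adjusted p = 0.0357) and by -3.91 from undifferentiated/spindle tumors (SE 0.81, adjusted p = 0.00303), and the former call was lost in 7 of 10 fits without 1 sample (adjusted p up to 0.115). Undifferentiated/spindle tumors did not pass the test against skin (-1.10, SE 0.76, adjusted p = 0.275) or against poorly differentiated tumors (1.48 higher, SE 0.84, adjusted p = 0.278). The call over all tumors was lost without skin sample 2 or 4 (-2.52 and -2.45, adjusted p = 0.0644 and 0.0695) and in Trp53ΔEC tumors alone (-2.76, adjusted p = 0.0517).

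Markers of the 2 cell types that carry LYVE1 moved with it in some comparisons and not in others. Of 6 lymphatic markers 4 fell over all tumors and 1 rose, beside 18.3% of all genes lower and 18.0% higher. The mean of the list was 7.79 to 7.90 in skin against 5.33 to 7.50 in tumors. Mmrn1, a lymphatic matrix protein, fell by 2.85 (SE 0.61, adjusted p = 0.00104), and Prox1, the lymphatic master regulator, was near the lowest array values in all groups (4.18 to 4.70 in skin, 3.28 to 4.35 in tumors). Pdpn, of the same list, went the other way in mixed (10.88 to 11.56) and undifferentiated/spindle tumors (10.24 to 11.68), wholly above skin (9.53 to 9.97). In poorly differentiated tumors it overlapped skin (9.08 to 11.27). The macrophage list (14 genes) had a mean of 9.50 to 10.31 in skin, 7.17 to 10.65 in poorly differentiated, 7.84 to 8.24 in mixed and 9.82 to 11.13 in undifferentiated/spindle tumors. In this list 3 of 14 genes fell and 1 rose over all tumors, with the falls close to the share of 18.3% over all genes. In mixed tumors against skin 10 fell and 1 rose, beside 21.3% of all genes lower and 21.8% higher. From poorly differentiated to undifferentiated/spindle tumors 9 rose, beside 12.0% of all genes. In mixed against poorly differentiated tumors, where Lyve1 was lower, 1 of 14 macrophage markers was higher and none lower, with a list median of -0.83. There 1 of 6 lymphatic markers was lower, with a list median of 0.00. Of all genes 12.5% were higher and 11.1% lower in that comparison. The spindle cell carcinomas with high Lyve1 had the highest macrophage means, 11.06 and 11.13, but lymphatic means of 6.57 and 6.46, below every skin sample. The macrophage list did not move as a whole. In undifferentiated/spindle tumors against skin 4 of 14 rose and 1 fell, beside 21.8% and 20.2% of all genes. Cd163 lay wholly below skin in these tumors, at 4.51 to 10.29 against 10.33 to 11.30. What part each cell type has in the Lyve1 values was not tested.

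**Figure D3:**
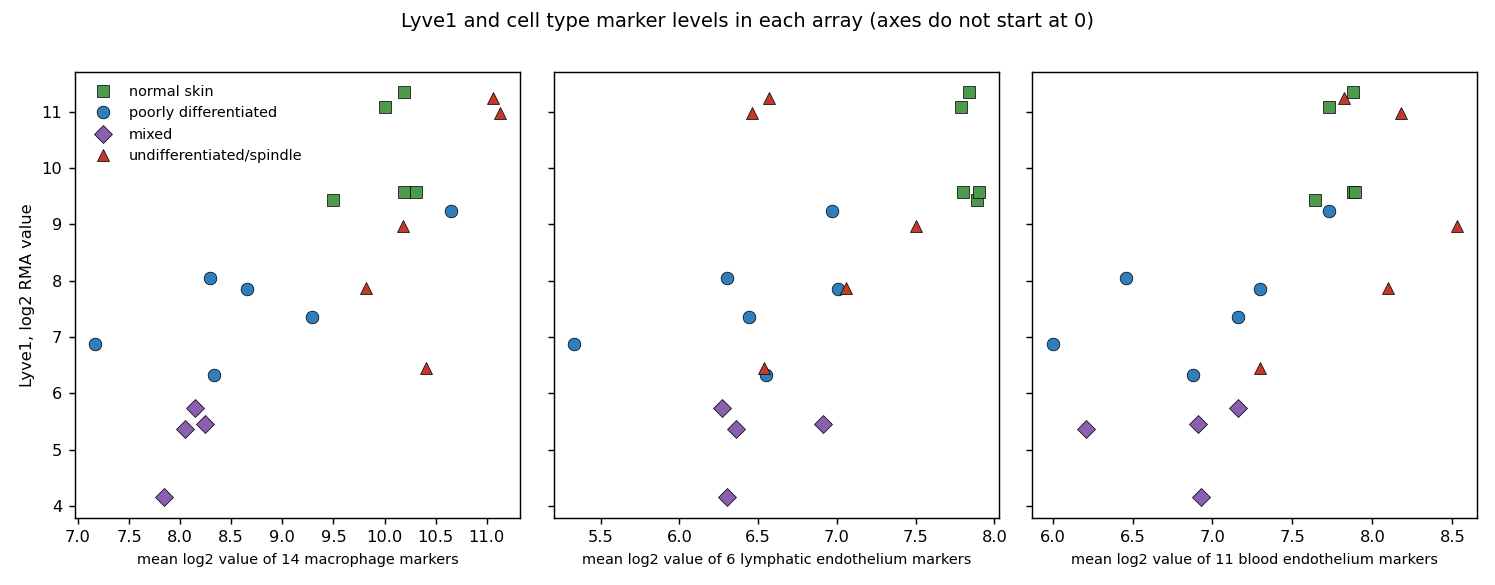
Lyve1 (y axis, log2) against the mean log2 value of the macrophage, lymphatic and blood endothelial markers (x axes) in each of the 20 arrays, by histological group. Mixed tumors lie below skin on all 3 lists, and the spindle cell carcinomas join high Lyve1 with high macrophage markers and lymphatic markers below those of skin.

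Tnfaip6 encodes the inflammation-induced protein that transfers heavy chains of inter-alpha-inhibitor onto hyaluronan. It ranged from 5.32 to 9.01 (median 7.47) in poorly differentiated tumors and was 11.13, 8.71, 8.67, 10.26 and 9.39 in undifferentiated/spindle tumors. Double-deficient tumors 7 and 8 were lowest at 5.47 and 5.32, and double-deficient tumor 2 at 9.01 lay inside the undifferentiated/spindle range. The rise was 2.48 (SE 0.71, adjusted p = 0.0321), or 5.57-fold. This call was lost without any one of Trp53ΔEC tumors 2 and 6 and double-deficient tumors 1, 5, 7 and 8 (2.10 to 2.54, adjusted p up to 0.0798). It was also lost in the methods' t-test (adjusted p = 0.0723) and with the mixed tumors counted as undifferentiated/spindle (1.54, adjusted p = 0.23). Against skin, at 8.93, 7.28, 7.58, 7.89 and 7.53, undifferentiated/spindle tumors were 1.79 higher (SE 0.71, adjusted p = 0.0525, or 0.00987 in the fit of those 2 groups alone).

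Vcan was higher in undifferentiated/spindle and in mixed tumors than in skin and in poorly differentiated tumors, without overlap for the undifferentiated/spindle tumors and with overlap for the mixed ones. Skin samples measured 7.72, 8.69, 8.09, 8.75 and 7.88, and poorly differentiated tumors lay between 7.77 and 8.98 (median 8.03), over the same range. Mixed tumors were at 10.70, 10.28, 8.75 and 10.28 and undifferentiated/spindle tumors at 9.12, 10.57, 10.40, 10.91 and 10.93. The lowest of these, Trp53ΔEC tumor 5 (mixed) and double-deficient tumor 1 (spindle cell), were the 2 closest to skin, and the former reached the highest skin sample and lay below the highest poorly differentiated tumor. Vcan rose by 2.23 with grade (SE 0.33, adjusted p = 0.000806), by 2.16 in undifferentiated/spindle tumors against skin (SE 0.38, adjusted p = 0.000168) and by 1.78 in mixed tumors against skin (SE 0.40, adjusted p = 0.00172). Mixed tumors were also 1.85 above poorly differentiated ones (SE 0.39, adjusted p = 0.00239). Poorly differentiated tumors differed from skin by -0.07 (SE 0.36, adjusted p = 0.905), and over all tumors the difference was 1.17 (SE 0.54, adjusted p = 0.101), which passed in the methods' t-test (adjusted p = 0.0201). The grade call held in each fit with 1 tumor left out (2.09 to 2.55) and was lost with the mixed tumors counted as poorly differentiated (1.49, adjusted p = 0.1).

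Fibroblast markers moved with Vcan only in part. Their mean over 13 genes was 11.66 to 11.88 in skin and 7.63 to 10.83 in poorly differentiated tumors. It was 8.05 to 10.27 in mixed and 10.48 to 10.78 in undifferentiated/spindle tumors. Each tumor group thus lay below skin, the mixed and undifferentiated/spindle tumors with higher Vcan and the poorly differentiated tumors without it. Of the 13 genes, 10 fell in mixed tumors against skin, beside 21.3% of all genes lower. From poorly differentiated to undifferentiated/spindle tumors 1, Pdgfra, rose (2.89, SE 0.56, adjusted p = 0.00422), beside 12.0% of all genes higher. Keratinocyte markers all fell with grade (14 of 14, beside 9.47% of all genes), in the same direction as Has3. Examples are Krt14 by 7.38 (SE 1.12, adjusted p = 0.00091) and Trp63 by 6.91 (SE 0.52, adjusted p = 6.83e-06). Against skin they did not move with Has3 in poorly differentiated tumors. The keratinocyte means of these tumors, 11.14 to 12.21, spanned the skin range of 11.75 to 12.05, while Has3 was 3.59 higher. Those of mixed tumors, 6.33 to 10.13, lay below skin, while Has3 differed by -0.08. Has3 in skin, at a mean of 4.67, already lay below the skin array medians of 5.585 to 5.632. The mixed tumors therefore cannot show whether Has3 falls with these markers. The part of cell composition in the Vcan and Has3 differences was not tested.

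Probesets of one gene did not always give the same answer. Vcan has 8 probesets, of which 5 stay near the lowest values of the arrays (means of 3.24 to 3.63). The 3 bright ones agreed on the grade difference, at 2.23, 2.32 and 2.13, but not on tumors against skin, and the median of all 8 gave a grade difference of 0.40 (adjusted p = 0.183). There the second brightest gave 2.26 (SE 0.53, adjusted p = 0.0022) and the third 1.40 (SE 0.51, adjusted p = 0.0358), where the brightest gave 1.17 without passing. The second brightest was also higher in poorly differentiated tumors than in skin, by 1.14 (SE 0.34, adjusted p = 0.0139). Within an array its difference from the brightest probeset averaged -1.29 ± 0.38 (SD, n = 5) in skin, from -1.88 to -0.96, and -0.19 ± 0.45 (SD, n = 15) in tumors, from -1.11 to 0.55. The 2 groups differed by 1.09 (two-sided exact permutation test, p = 0.000387, Benjamini-Hochberg adjusted over 12 such tests 0.00464), and mixed double-deficient tumor 4 was the only tumor inside the skin range. Between the grades this within-array difference moved by 0.09 (exact permutation p = 0.701).

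A similar pattern was found for Cd44, whose transcript is known for its variable exons. The third Cd44 probeset by brightness rose by 2.04 in tumors (SE 0.42, adjusted p = 0.00079), against 0.94 for the brightest and 0.62 for the second (SE 0.26, adjusted p = 0.0651). Its within-array difference from the brightest averaged -3.20 ± 0.65 (SD, n = 5) in skin and -2.10 ± 0.51 (SD, n = 15) in tumors, a shift of 1.10 (exact permutation p = 0.00335, adjusted 0.0201), and the groups overlapped. By grade the shift was -0.07 (exact permutation p = 0.848). For Has2 the 2 probesets shifted by 0.56 between tumors and skin (exact permutation p = 0.00851, adjusted 0.0341), and for Lyve1 by 0.19 (exact permutation p = 0.416). Which exons or transcript ends these probesets read was not analysed here, and the tests were chosen after the values were seen.

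**Figure D4:**
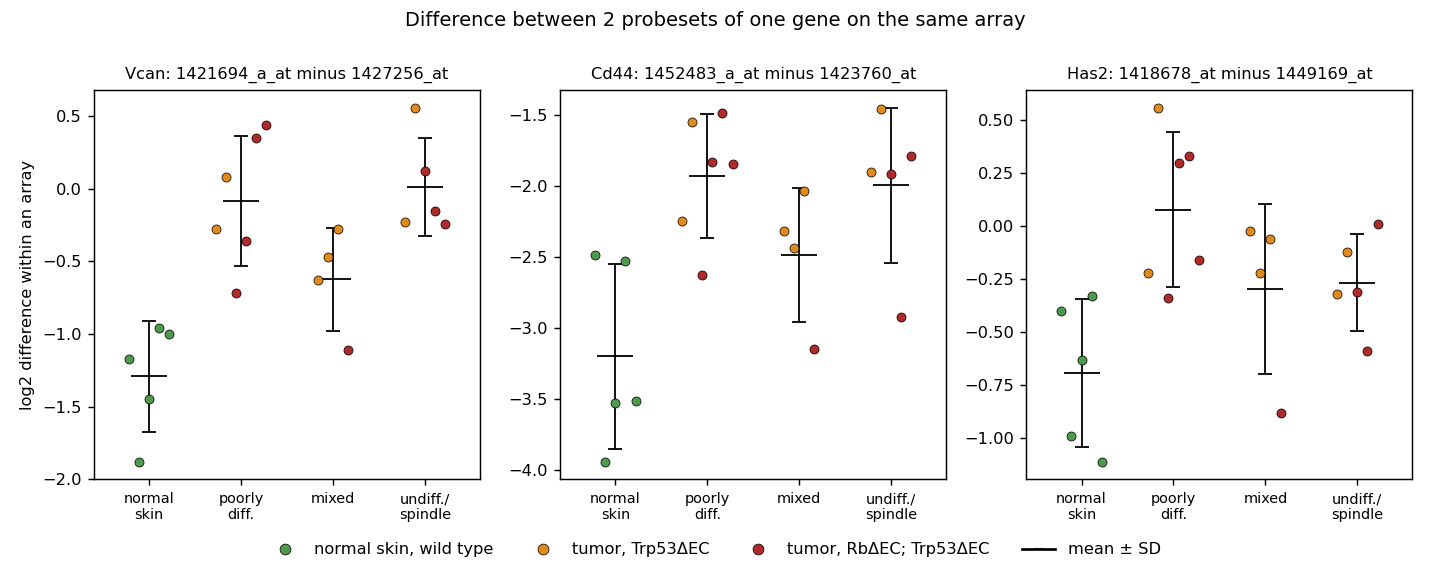
Within-array log2 difference of the second brightest (Vcan, Has2) or the third brightest (Cd44) probeset from the brightest (y axis) in each array, by histological group, with the mean and SD. For each gene the skin samples have the lowest mean, and the poorly differentiated and undifferentiated/spindle tumors overlap.

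The genotype comparison asked whether deletion of Rb1 in addition to Trp53 moves these genes. None of the 8 members passed the test, by limma or by the methods' t-test, where 0.0165% of all genes were higher and 0.0275% lower in double-deficient tumors. No member reached an unadjusted p of 0.05, which 5.59% of all genes did, and none separated the genotypes (0.0440% of genes upward, 0.0934% downward). The widest differences were 0.48 for Tnfaip6 (SE 0.84), -0.29 for Vcan (SE 0.62) and 0.27 for Has1 (SE 0.49), with adjusted p from 0.932 to 0.999 over the 8. Cd44 ran from 11.91 to 12.75 (median 12.07) in Trp53ΔEC tumors and from 11.47 to 12.89 (median 12.77) in double-deficient tumors, so that the smaller group lay wholly inside the range of the other. For Vcan the ranges, 7.79 to 10.93 and 7.77 to 10.91, nearly coincided. Trp53ΔEC tumors held 2 poorly differentiated and 3 mixed tumors, against 4 and 1 in the double-deficient group. A fit with the histological group as a covariate likewise called none.

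The grade difference itself was compared between genotypes by an interaction term. It called 0 of 8 members and 0.00% of all genes at an adjusted p of 0.05. Before adjustment 2 of 8 members and 7.68% of all genes were under 0.05. These were Has1, with a larger rise with grade in double-deficient tumors (1.88, SE 0.78, adjusted p = 0.75 by limma), and Hyal2 (-0.92, SE 0.27, adjusted p = 0.644 by limma). The cells of this test hold 2 to 4 tumors.

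Genes around the members were read from lists of hyaluronan and versican biology, and their counts stand beside 18.0% of all genes higher and 18.3% lower over all tumors, and 12.0% and 9.47% by grade. Among 9 measured genes of hyaluronan turnover, 2 rose and 2 fell over all tumors, with a median of 0.05, each count close to the share over all genes. Cemip2, a membrane protein linked to hyaluronan breakdown, rose by 1.55 (SE 0.26, adjusted p = 9.89e-05) without overlap. Cemip, a hyaluronan-binding protein needed for its breakdown in fibroblasts, rose by 2.16 (SE 0.61, adjusted p = 0.00912). Like Has3, Cemip was highest in poorly differentiated tumors: 4.06 to 4.54 in skin, 6.70 to 8.60 in poorly differentiated, 4.53 to 5.65 in mixed and 4.46 to 6.50 in undifferentiated/spindle tumors. From poorly differentiated to undifferentiated/spindle tumors it fell by 2.15 (SE 0.41, adjusted p = 0.00387).

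Of 20 other hyaluronan-binding proteins and receptors, 2 rose and 7 fell over all tumors, with a median of -0.02. Hmmr, a hyaluronan receptor that also serves at the mitotic spindle, rose by 2.40 (SE 0.22, adjusted p = 6e-08) without overlap, from 5.82 to 6.46 in skin to 7.74 to 9.58 in tumors. The study itself selected Hmmr on arrays that include these, so this rise is not independent evidence. Svep1, a large adhesion protein, fell by 2.35 (SE 0.47, adjusted p = 0.00053), and Itih5, of the inter-alpha-inhibitor heavy chains, by 2.43 (SE 0.91, adjusted p = 0.0424). With grade 3 rose and 1 fell, and among those that rose were Layn, a transmembrane hyaluronan receptor, by 1.42 (SE 0.15, adjusted p = 7.27e-05), and Stab1, a scavenger receptor of macrophages and sinusoidal endothelium, by 1.54 (SE 0.36, adjusted p = 0.013). Stab1 also differed by -1.23 in mixed against poorly differentiated tumors (SE 0.36, adjusted p = 0.0236), in the same direction as Lyve1.

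Of the 7 versican-cleaving proteases, 4 rose and none fell in mixed tumors against skin, with a median of 1.68, beside 21.8% and 21.3% of all genes. Over all tumors 1 rose and 1 fell, and the difference between the groups was not tested for the list. Adamts20 was at 9.10, 7.36, 11.25 and 10.84 in the 4 mixed tumors and between 2.96 and 4.56 in all other arrays, without overlap. Its rise was 6.35 against skin (SE 0.53, adjusted p = 4.77e-08), 5.98 against poorly differentiated (SE 0.51, adjusted p = 2.49e-07) and 5.89 against undifferentiated/spindle tumors (SE 0.53, adjusted p = 1.46e-06). Adamts4, an aggrecanase, rose against skin by 2.51 in mixed tumors (SE 0.50, adjusted p = 0.000584), by 2.11 in undifferentiated/spindle tumors (SE 0.47, adjusted p = 0.00144) and by 1.25 in poorly differentiated tumors (SE 0.45, adjusted p = 0.0347), where Vcan did not pass the test. Adamts5 fell in undifferentiated/spindle tumors by 2.32 (SE 0.51, adjusted p = 0.00129).

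Of 18 genes that build chondroitin sulfate chains, which versican carries, 5 rose and 1 fell over all tumors and 7 rose and none fell with grade. Chsy1, a chain polymerase, rose by 1.74 in tumors (SE 0.19, adjusted p = 5.17e-07), and Csgalnact1, which starts the chain, rose by 1.63 with grade (SE 0.31, adjusted p = 0.00346). Csgalnact1 did not follow Vcan into the mixed tumors, where it differed by -1.57 from poorly differentiated tumors (SE 0.44, adjusted p = 0.0171). Among 10 lecticans and versican partners the list median was 0.12 over all tumors, and Tnc, the matrix glycoprotein tenascin-C, rose by 4.18 (SE 0.61, adjusted p = 2.28e-05). Its range was 5.60 to 8.32 in skin and 8.74 to 13.09 in tumors.

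Precursor synthesis and Cd44 partners varied as well. Of 10 genes for UDP-sugars 3 rose and 1 fell over all tumors: Gnpnat1, in the hexosamine pathway, rose by 1.82 (SE 0.22, adjusted p = 2.96e-06) and Ugp2, which makes UDP-glucose, fell by 1.24 (SE 0.10, adjusted p = 7.32e-09), each without overlap. Of 15 Cd44 partners and splicing factors 2 rose and 5 fell with grade, for a median of -0.27. The falls included Esrp1 and Esrp2, epithelial factors that promote inclusion of Cd44 variable exons, by 6.07 (SE 0.40, adjusted p = 2.56e-06) and 4.81 (SE 0.36, adjusted p = 6.25e-06). Mmp9, a protease that docks on CD44, was 3.85 higher in poorly differentiated tumors than in skin (SE 0.48, adjusted p = 5.95e-06) and fell by 2.33 from those to undifferentiated/spindle tumors (SE 0.37, adjusted p = 0.00127). The neutrophil list, which holds cells that also make Mmp9, had a mean of 8.94 to 10.75 in poorly differentiated and 5.72 to 6.92 in undifferentiated/spindle tumors.

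The genes closest to each member were found by Pearson distance over the 15 tumors, among 11389 genes with a mean of at least 6, as a description. Has3 was closest to Ces2g, Tgm3 and Defb1 (distances 0.0697, 0.0707 and 0.0759), of which Tgm3 is an epidermal transglutaminase and Defb1 an epithelial defensin. Vcan was closest to Fam110b, Parva and Ccdc90b (0.0634, 0.0637 and 0.0686), and Lyve1 to Itgb7, Stab1 and Lrmp (0.088, 0.104 and 0.12). For Has1 the nearest were Tbxas1, B4galt5 and Alox5 (0.0777, 0.101 and 0.115), for Tnfaip6 Med7, Snx24 and Rasa2 (0.0784, 0.0904 and 0.0919). Has2 had no gene as close, with Lum, Kitl and Srpx at 0.183, 0.205 and 0.23. Cd44 and Hyal2 lay nearest to Ttll9 (0.117) and Nelfb (0.115). These tumors share their grades, so genes that differ between grades lie close to each other.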

How the data were processed

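Total RNA of 20 samples had been hybridized to Affymetrix MOE430 2.0 arrays. The deposited values are log2 values that the authors made by RMA (named in the submitters' processing notes, version not given in the sources used here), which background-corrects, normalizes and summarizes probes into probesets. They run from 2.337 to 14.72, and their number per group limits the precision. All sample columns matched a label. After removal of 64 control probesets, 45037 were tested. The annotation gave 1 symbol for 34945, several for 932 and none for 9160, and the brightest probeset was kept for each of 18193 genes.

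Groups came from the labels (genotype, histological subtype). Comparisons used limma 3.58.1 (lmFit, eBayes) in R 4.3.3. Tests were two-sided, p-values were adjusted by Benjamini-Hochberg across the probesets tested, with 0.05 as the threshold of a call. Limma replaced the methods' t-test, which was run as an alternative. Percentages of genes called and list counts are over genes by their brightest probeset. The fit by grade used the 11 tumors of the 2 grades, the genotype fit all 15 tumors, and comparisons of a single histological group with skin or of mixed tumors a 4-group fit over 20 arrays. Within-array differences between 2 probesets of a gene were compared between groups by exact permutation tests of the mean (scipy 1.17.1). The fits were tested on simulated data first. Promoters were searched for 5 motifs.

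Named genes are all members, up to 3 called genes of each list with the largest changes, and the 3 nearest genes of each member. Prox1, Pdpn and Cd163 were added after their values were seen. The members and lists were chosen with earlier results of these data known. Alternatives were array centring, a filter at a mean of 6, 1 probeset a gene, the median probeset, the t-test, a replicate block, each genotype alone, covariates, other placements of the mixed tumors, other probesets and leaving out each sample.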

Additional observations from a re-analysis of the deposited data

Results flagged for a closer look

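Has3 in skin sample 1 stood apart from the other skin samples, at 5.11 with the nearest at 4.64, a gap that is 0.74 of the range of the 5 samples. It was the only value set apart among 48 groups of a gene's values, where chance gives about 1 in 20 groups. The value lies above the 4 other skin samples and above 3 of the mixed tumors, but below 5 of the 6 poorly differentiated tumors. All 5 skin values lay below the lowest skin array median, 5.585.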

How the results depend on the processing

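The number of members called changed by more than 1.5 times in 4 comparisons. Of 4 over all tumors against skin, 2 remained as a count in Trp53ΔEC tumors alone, and leaving out 1 sample gave between 2 and 4, the lowest without skin sample 4. Of 3 by grade, the count was 1 in the methods' t-test, 1 with only the undifferentiated carcinomas and 1 with a replicate block. In the fit of only the groups compared, undifferentiated/spindle tumors against skin had 7 called members (4 in the 4-group fit) and mixed against undifferentiated/spindle tumors 1 (2 in the 4-group fit), the call of Has1 being lost (adjusted p = 0.053). The share of all genes called was not computed for these alternative fits. The cause of these changes was not tested, beyond the fewer samples in some fits.

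Replicate numbers are shared between groups. Over 7 pairs of same-numbered tumors the correlations of deviations ran from -0.416 to 0.619. Numbers 1 (both spindle cell) and 6 (both poorly differentiated) gave the highest values, 0.619 and 0.595. Shared histology and a pairing cannot be told apart there, so this check does not settle whether the numbers mark pairs. The labels name no pairing, and the main fits treat the samples as unpaired. With the replicate block the grade difference of Has2 was -1.34, those of Tnfaip6 (0.37) and Vcan (1.95) and the fall of Lyve1 over all tumors (-2.49) missed the threshold, and Vcan over all tumors (1.62) passed it. The block changed no other call.

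Some differences that had not passed changed sign. By grade, Lyve1 was -0.26 with the mixed tumors counted as undifferentiated/spindle. Over all tumors, Tnfaip6 was -0.02 in Trp53ΔEC tumors. By genotype, poorly differentiated tumors alone gave -0.77 for Has1, -0.88 for Tnfaip6, -0.25 for Lyve1 and 0.23 for Vcan, and the grade as a covariate gave -0.04 for Has2, -0.95 for Lyve1 and 0.08 for Vcan.

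The 6 dim probesets of Cd44 and Vcan differed from each other. The seventh Vcan probeset was called higher over all tumors (0.62, adjusted p = 0.00333) and in mixed (0.60), undifferentiated/spindle (0.87) and poorly differentiated tumors against skin, and the eighth by grade (1.04, adjusted p = 0.0495) and in undifferentiated/spindle tumors against skin (1.18). The dimmest Cd44 probeset gave -0.06 over all tumors, -0.01 by genotype, -0.03, -0.11 and -0.07 in poorly differentiated, mixed and undifferentiated/spindle tumors against skin, and 0.01 in the interaction. The fourth Vcan probeset by brightness gave -0.05 over all tumors, -0.04 by grade, -0.08 and -0.06 in mixed and undifferentiated/spindle tumors against skin and -0.07 in mixed against poorly differentiated tumors. The fifth Vcan probeset gave -0.02 over all tumors, 0.06 by genotype, -0.09 in mixed tumors against skin, -0.00 in mixed against poorly differentiated tumors and 0.12 in the interaction. The sixth Vcan probeset gave 0.12 by genotype and 0.03 in the interaction, and the seventh 0.06 by genotype. In poorly differentiated tumors against skin, where the brightest probeset gave -0.07, Vcan was 1.14 by the second, 0.24 by the third, 0.44 by the seventh and 0.13 by the eighth.

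Leaving out 1 sample turned uncalled differences in these cases. Over all tumors Has1 ran from -0.05 to 0.24. By genotype Has1 ran from -0.08 to 0.43, Has2 from -0.09 to 0.40, Has3 from -0.73 to 0.45 and Lyve1 from -0.50 to 0.63. Against skin Vcan ran from -0.23 to 0.06 in poorly differentiated tumors, and Has3 from -0.61 to 0.18 and Tnfaip6 from -0.79 to 0.30 in mixed tumors. Mixed against poorly differentiated tumors gave -0.15 to 0.07 for Hyal2 and -0.10 to 0.99 for Tnfaip6, and mixed against undifferentiated/spindle tumors -0.20 to 0.60 for Has3 and -0.70 to 0.04 for Vcan. In the interaction Has2 ran from -0.58 to 0.64, Cd44 from -0.64 to 0.17 and Lyve1 from -2.65 to 0.25. Of all alternative values of the members, 72 changed sign, 62 lost and 26 gained a call, and 1105 did neither.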
